A study of Mus musculus with 6 samples.

Results

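Scavenger and efferocytosis receptors are the surface and endosomal proteins with which macrophages take up modified lipoproteins, microbes and dying cells. The 10 genes described here, of 54532 in the deposited tables, were chosen by symbol: Msr1, Marco, Scarb1, Cd68, Mertk, Axl, Stab1, Cd163, Mrc1 and Olr1. Earlier results of these data were known at the time of that choice. All 10 symbols were found in the GENCODE M21 annotation of mouse build mm10. Transcript levels were measured by RNA sequencing in 3 libraries in which a hairpin RNA lowered Pgam5 (PGAM5 knockdown) and 3 in which it lowered Dnm1l, whose product DRP1 is the GTPase of mitochondrial fission (DRP1 knockdown). PGAM5 is a protein phosphatase of mitochondria, and the series asked about its role in anti-inflammatory responses. The cells were immortalised bone marrow-derived macrophages of mouse, and all 6 libraries came from cells kept for 24 h with 10 ng/ml of interleukin-4. The labels do not say whether numbered libraries of a knockdown differ in hairpin, clone or culture. Libraries with a control hairpin or without interleukin-4 were not analysed here, so each difference below sets the PGAM5 knockdown against the DRP1 knockdown and not against normal cells.

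Scavenger receptors bind polyanionic or oxidised ligands and carry them to lysosomes. Efferocytosis, the removal of dying cells, starts when a receptor binds phosphatidylserine on the dying cell, directly or through a bridging protein. AXL and MERTK are receptor tyrosine kinases of the TAM family, which bind phosphatidylserine through the bridging ligands GAS6 and protein S. In mouse macrophages, interleukin-4 is known to raise Mrc1, and Cd163 and Mertk are commonly used to mark tissue-resident or anti-inflammatory macrophages.

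The libraries held 16111281 to 21933548 reads. Within groups, libraries correlated at 0.993 to 0.995 over tested genes on the log2 scale, and PGAM5 knockdown library 3 stood apart, with a chi-square per gene of 7.66 and 5.58 against the other libraries of its group, while other pairs within groups gave 2.61 to 3.04. Pgam5 stood at 4.60 to 5.21 FPKM in the PGAM5 knockdown and 17.1 to 17.3 FPKM in the DRP1 knockdown. Gm26718 overlaps 58.1% of the exonic length of Pgam5, so the Pgam5 values are uncertain. Dnm1l stood at 17.2 to 18.7 FPKM in the PGAM5 knockdown and 7.12 to 8.18 FPKM in the DRP1 knockdown, with 4.67% of its exonic length overlapped by Gm49521. Each targeted gene was thus lower in the libraries labelled with its knockdown. FPKM is the number of fragments per kilobase of transcript, scaled to the library's total. The macrophage label was checked against 12 markers, of which 11 lay above a mean of 1 FPKM. Marker lists of fibroblasts, dendritic cells, T cells, B cells, neutrophils and mast cells each summed to at most 0.583 FPKM in any library. Their most abundant genes were Col1a1, Xcr1, Cd2, Cd79b, S100a8 and Cpa3, the highest mean being that of Cpa3, with 0.199 ± 0.213 FPKM in the PGAM5 knockdown and 0.503 ± 0.082 FPKM in the DRP1 knockdown.

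Among the 10 receptor genes, Axl was 6.29-fold higher in the PGAM5 knockdown, from a low level, while the abundant genes Cd68 and Msr1 stood at 0.735 and 0.775 of their DRP1 knockdown levels and Scarb1 overlapped between the groups. The other TAM receptor of the set, Mertk, and Cd163, Mrc1, Olr1 and Marco had 0 to 4 reads over all 6 libraries. Stab1 was lower in every PGAM5 knockdown library, with a test result that depended on the method.

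Read against the background, 2 of the 3 receptor genes tested at the 1 FPKM filter were lower in the PGAM5 knockdown and 0 were higher, where 11.7% of all 10634 tested genes were lower and 13.8% higher (25.4% in either direction). These 2 were Cd68 and Msr1. At the 0.1 FPKM filter 1 of 5 was higher, Axl, and 2 were lower, where 9.77% of 14632 genes were higher and 8.04% lower (17.8% in either direction). With voom on reads recovered from the FPKM, 1 was higher and 3 lower, where 12.1% of 13987 genes were higher and 10.8% lower (22.9% in either direction). Groups did not overlap for 4 of these 5, against 37.1% of the 14632 genes and 43.5% of the 10634. These counts cover the genes that passed a filter, not all 10. With so few genes the shares do not set the receptors apart from other genes.

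By mean FPKM over the 6 libraries the order was Cd68 (592), Msr1 (17.6), Scarb1 (2.53), Axl (0.572) and Stab1 (0.387), followed by 5 genes below 0.1 FPKM. Of the 10 genes, 3 passed the filter of a mean of at least 1 FPKM used for the tests over all genes, and 5 passed a lower filter of 0.1 FPKM. Cd68 lay above 99.4% of the 10634 genes tested, Msr1 above 69.0% and Scarb1 above 16.3%. Axl and Stab1 changed places between the groups. Their ratio was 3.01, 6.44 and 2.64 in PGAM5 knockdown libraries 1 to 3, and 0.323, 0.341 and 0.297 in DRP1 knockdown libraries 1 to 3. Every PGAM5 knockdown library thus held more Axl than Stab1 per length, and every DRP1 knockdown library less. The order of Marco, Mrc1, Olr1, Mertk and Cd163 among themselves cannot be read, since each lay at or below 2 reads in every library.

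**Figure D1:**
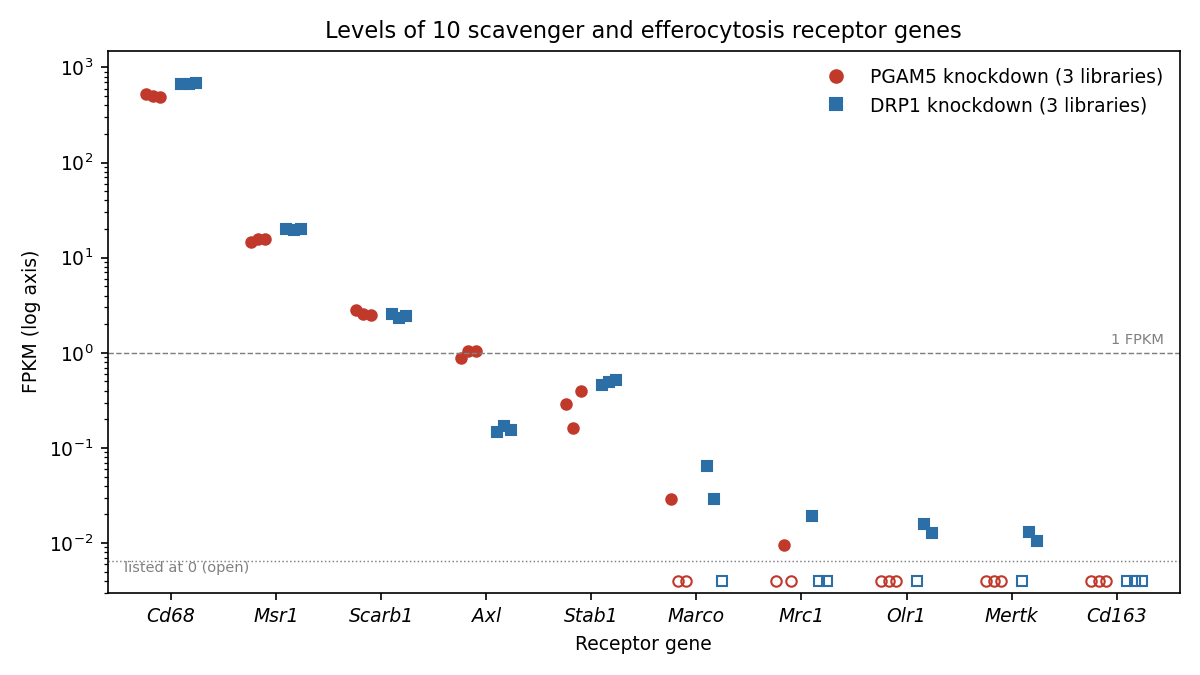
FPKM (log axis) of the 10 receptor genes in order of their mean, with filled points for libraries above 0 and open points for libraries listed at 0, PGAM5 knockdown in red and DRP1 knockdown in blue. Cd68, Msr1, Scarb1, Axl and Stab1 were detected in every library, and the groups are farthest apart for Axl.

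CD68, a heavily glycosylated protein of late endosomes and lysosomes that binds oxidised lipoprotein, is a general marker of macrophages. Cd68 (ENSMUSG00000018774, chr11:69664213-69666153, minus strand) stood at 522, 498 and 484 FPKM in PGAM5 libraries 1 to 3, against 678, 674 and 693 FPKM in DRP1 libraries 1 to 3. All PGAM5 knockdown libraries lay below all DRP1 knockdown libraries. The means were 501 ± 19.0 FPKM in the PGAM5 knockdown and 682 ± 10.1 FPKM in the DRP1 knockdown (SD, n = 3 each), a ratio of 0.735. On the log2(FPKM + 1) scale Cd68 fell by 0.44 (SE 0.034, limma adjusted p = 0.00019), and the exact permutation p was 0.1, the smallest that 3 libraries against 3 allow. Cd68 made up 96.1% to 96.5% of the summed FPKM of the 10 genes in PGAM5 libraries, against 96.7% to 96.8% in DRP1 libraries, so the sum over the 10 genes follows this gene. In these bulk samples, fewer cells that express a gene and less of its RNA per cell cannot be told apart.

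The 250 bases before the RefSeq start of Cd68 (build GRCm38.p6, chr11:69666171-69666420, minus strand) are shown because Cd68 carries most of the receptor signal in these cells. Capitals mark GAGGAA, the core of sites for ETS factors such as PU.1, TGANTCA, the AP-1 motif, and GGGCGG, the GC box, on either strand.
Cd68: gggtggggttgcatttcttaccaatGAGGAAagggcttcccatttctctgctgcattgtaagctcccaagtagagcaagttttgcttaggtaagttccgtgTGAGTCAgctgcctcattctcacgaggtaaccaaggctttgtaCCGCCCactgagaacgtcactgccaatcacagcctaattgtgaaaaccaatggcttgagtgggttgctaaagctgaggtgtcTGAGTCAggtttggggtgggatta
Cd68 held 2 AP-1 matches, with their first bases at positions -149 and -24, where -1 is the base next to the start. Over all RefSeq windows of the same length, 6.75% held at least 1 AP-1 match, 23.3% the ETS core and 32.7% the GC box.

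The class A receptors MSR1 (SR-A1) and MARCO are trimeric proteins with a collagen-like stem that bind modified lipoproteins and bacteria. Msr1 (ENSMUSG00000025044, chr8:39581685-39642673, minus strand) stood at 14.8, 15.6 and 15.8 FPKM in PGAM5 libraries 1 to 3, against 19.9, 19.7 and 20.0 FPKM in DRP1 libraries 1 to 3. The groups did not overlap, and the DRP1 knockdown libraries varied little among themselves. Means were 15.4 ± 0.52 FPKM in the PGAM5 knockdown and 19.9 ± 0.13 FPKM in the DRP1 knockdown (SD, n = 3 each). Msr1 fell by 0.35 on the log2(FPKM + 1) scale (SE 0.036, limma adjusted p = 0.00064, exact permutation p = 0.1). The ratio of Cd68 to Msr1 was 30.7 to 35.3 over the PGAM5 libraries, against 34.1 to 34.7 over the DRP1 libraries. By library it was 35.3, 31.9 and 30.7 in PGAM5 libraries 1 to 3. The ranges thus overlap only through PGAM5 library 1, while PGAM5 libraries 2 and 3 lay below every DRP1 library.

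Marco (ENSMUSG00000026390, chr1:120474538-120505024, minus strand) had 1, 0 and 0 reads in PGAM5 libraries 1 to 3, against 2, 1 and 0 reads in DRP1 libraries 1 to 3. At this depth 3 reads of Marco correspond to 0.0711 to 0.0967 FPKM per library, and no difference was detectable.

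Alongside Cd68 and Msr1, 5 of the 11 tested macrophage markers were lower in the PGAM5 knockdown, 1 was higher and 5 did not pass, where 11.7% of all tested genes were lower and 13.8% higher. The lower markers were Lyz2, Tyrobp, Fcgr1, Laptm5 and Fcer1g, with log2(FPKM + 1) differences of -0.62 to -0.12, and the higher was Coro1a (0.34, limma adjusted p = 0.0012). The list summed to 2755 to 2938 FPKM in the PGAM5 knockdown and to 3560 to 3615 FPKM in the DRP1 knockdown, and no marker of the list was at 0. Most of that gap was Lyz2, the lysozyme gene, which averaged 1272 ± 71.9 FPKM in the PGAM5 knockdown and 1954 ± 8.85 FPKM in the DRP1 knockdown (SD, n = 3 each, limma adjusted p = 0.00011). Tyrobp, an adaptor of activating receptors, averaged 292 ± 13.3 FPKM in the PGAM5 knockdown and 366 ± 15.5 FPKM in the DRP1 knockdown. Adgre1, the gene of F4/80, averaged 43.9 ± 0.58 FPKM in the PGAM5 knockdown and 43.4 ± 0.91 FPKM in the DRP1 knockdown and did not pass (adjusted p = 0.72 in limma). The part of these markers in the lower Cd68 and Msr1 was not tested.

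SCARB1, the class B receptor SR-BI, takes up cholesteryl ester from high-density lipoprotein and also binds phosphatidylserine. Scarb1 (ENSMUSG00000037936, chr5:125277087-125341094, minus strand) stood at 2.80, 2.55 and 2.49 FPKM in PGAM5 libraries 1 to 3, against 2.56, 2.34 and 2.45 FPKM in DRP1 libraries 1 to 3. These groups overlapped. Means were 2.61 ± 0.16 FPKM in the PGAM5 knockdown and 2.45 ± 0.11 FPKM in the DRP1 knockdown (SD, n = 3 each). The difference of 0.07 on the log2(FPKM + 1) scale had a 95% interval of -0.08 to 0.21 and did not pass (limma adjusted p = 0.48, exact permutation p = 0.3).

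STAB1, or stabilin-1, is a large endocytic receptor of macrophages and sinusoidal endothelium that binds SPARC and phosphatidylserine. Stab1 (ENSMUSG00000042286, chr14:31139013-31168641, minus strand) had 53, 27 and 75 reads in PGAM5 libraries 1 to 3, against 76, 90 and 117 reads in DRP1 libraries 1 to 3. In FPKM these were 0.290, 0.161 and 0.398 in PGAM5 libraries 1 to 3, against 0.459, 0.495 and 0.518 in DRP1 libraries 1 to 3. The groups did not overlap, but the coefficient of variation was 42.0% among PGAM5 libraries, against 6.16% among DRP1 libraries, with PGAM5 knockdown library 2 the lowest. With the 0.1 FPKM filter the log2(FPKM + 1) difference was -0.22 (SE 0.088) and did not pass in limma (adjusted p = 0.14). Tested as reads recovered from the FPKM with voom, the log2 difference was -0.86 (SE 0.24, adjusted p = 0.015), so the call depended on the method. The exact permutation p was 0.1. An exon of Nt5dc2 covers 1.09% of the exonic length of Stab1, and the other 9 receptor genes shared no exon with another gene. Endothelial markers summed to 1.93 to 2.65 FPKM in the PGAM5 knockdown and to 1.86 to 2.10 FPKM in the DRP1 knockdown. Of those 8 markers, Emcn and Lyve1 were at 0 in all 6 libraries, and most of the sum was Egfl7, at 1.96 ± 0.33 FPKM in the PGAM5 knockdown and 1.30 ± 0.069 FPKM in the DRP1 knockdown. Egfl7 passed (adjusted p = 0.030 in limma), but not without a filter, with the replicate block, or when PGAM5 library 2 or 3 or any 1 of the DRP1 libraries was left out (adjusted p in limma or voom 0.014 to 0.091 over 14 alternatives). Other genes overlap 11.2% of the exonic length of Egfl7. Vwf and Tek ran the other way from Egfl7, and their groups did not overlap, as was so for 37.1% of the 14632 genes at the 0.1 FPKM filter. Vwf averaged 0.158 ± 0.040 FPKM in the PGAM5 knockdown and 0.356 ± 0.046 FPKM in the DRP1 knockdown. At the 0.1 FPKM filter it did not pass in limma (adjusted p = 0.073) but passed with voom (adjusted p = 0.00049). Tek averaged 0.0690 and 0.163 FPKM in the same order and passed in neither (adjusted p = 0.33 in limma, 0.10 in voom). It had 4, 6 and 7 reads in PGAM5 libraries 1 to 3, against 7, 17 and 20 reads in DRP1 libraries 1 to 3. Tek thus entered the test only through its level in the DRP1 knockdown. The part of these markers in the Stab1 values was not tested.

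Cd163, Mrc1 and Olr1 were near or at 0. Cd163 (ENSMUSG00000008845, chr6:124304656-124330527, plus strand), the haemoglobin-haptoglobin receptor gene, had 0 reads throughout, and a limit of 3 reads corresponds to 0.0250 to 0.0341 FPKM per library. Mrc1 (ENSMUSG00000026712, chr2:14229392-14332057, plus strand), which encodes the mannose receptor CD206, had 0, 1 and 0 reads in PGAM5 libraries 1 to 3, against 2, 0 and 0 reads in DRP1 libraries 1 to 3. Olr1 (ENSMUSG00000030162, chr6:129485244-129507165, minus strand), the gene of the oxidised LDL receptor LOX-1, had 0 reads in each PGAM5 library, against 0, 1 and 1 reads in DRP1 libraries 1 to 3. None of these values exceeded the 3-read limit, and differences between the groups were not detectable.

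AXL is a TAM receptor that rises in many inflammatory settings, while MERTK is the TAM receptor of most resident macrophages. Axl (ENSMUSG00000002602, chr7:25757273-25788705, minus strand) had 78, 85 and 97 reads in PGAM5 libraries 1 to 3, against 12, 15 and 17 reads in DRP1 libraries 1 to 3. In FPKM these were 0.872, 1.03 and 1.05 in PGAM5 libraries 1 to 3, against 0.148, 0.169 and 0.154 in DRP1 libraries 1 to 3. Every PGAM5 knockdown library lay above every DRP1 knockdown library, with a gap larger than the spread within either group. Means were 0.986 ± 0.099 FPKM in the PGAM5 knockdown and 0.157 ± 0.011 FPKM in the DRP1 knockdown (SD, n = 3 each), which is 6.29-fold higher in the PGAM5 knockdown.

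Axl lay below the filter of 1 FPKM and was therefore read from the fit over the 14632 genes with a mean of at least 0.1 FPKM. There it rose by 0.78 on the log2(FPKM + 1) scale (SE 0.070, limma adjusted p = 0.00073), a scale that understates folds at such levels. On reads recovered from the FPKM the log2 difference was 2.61 (SE 0.28, voom adjusted p = 3.2e-06), and the exact permutation p was 0.1. Without PGAM5 knockdown library 3, which stood apart, the log2(FPKM + 1) difference was 0.75 (limma adjusted p = 0.0033).

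Mertk (ENSMUSG00000014361, chr2:128698956-128802894, plus strand) had 0 reads in all 3 PGAM5 knockdown libraries, and 0, 1 and 1 reads in the DRP1 knockdown libraries, so the rise of Axl had no detectable counterpart in Mertk. The upstream windows of these 2 TAM genes are shown because Axl carried the largest fold among the receptors while Mertk was near 0. Each is the 250 bases before the RefSeq start (build GRCm38.p6), Axl at chr7:25788734-25788983 on the minus strand and Mertk at chr2:128698665-128698914 on the plus strand, with the same motifs in capitals as for Cd68.
Axl: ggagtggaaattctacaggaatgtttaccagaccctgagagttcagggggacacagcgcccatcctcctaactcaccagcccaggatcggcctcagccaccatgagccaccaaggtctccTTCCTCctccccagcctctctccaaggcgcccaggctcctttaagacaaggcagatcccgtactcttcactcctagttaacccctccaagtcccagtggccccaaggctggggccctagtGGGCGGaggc
Mertk: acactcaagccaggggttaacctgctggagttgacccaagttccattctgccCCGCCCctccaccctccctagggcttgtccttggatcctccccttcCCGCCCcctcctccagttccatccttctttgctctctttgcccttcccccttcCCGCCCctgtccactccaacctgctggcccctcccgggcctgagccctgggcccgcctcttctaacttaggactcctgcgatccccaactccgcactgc
The Axl window held 1 ETS core, with its first base at position -130, and 1 GC box at -10. Mertk held 3 GC boxes and no ETS core among these letters. Their GC content was 60.0% for Axl and 63.6% for Mertk, against a median of 52.4% over all windows. RefSeq windows were found for 8 of the 10 receptor genes, of which Marco, Mrc1, Olr1, Axl, Cd68 and Stab1 held at least 1 ETS core. On both strands, CACGTG (E-box), ACGTG (hypoxia core, which CACGTG contains), a STAT6 motif of TTC and GAA spaced by 4 bases, and an interferon response motif of GAAA and GAAA spaced by 2 bases had no match in any of the 8 windows. Over all windows, 6.02% held the E-box, 16.6% the hypoxia core, 5.85% the STAT6 motif and 2.98% the interferon response motif. These matches describe letters and do not show binding.

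**Figure D2:**
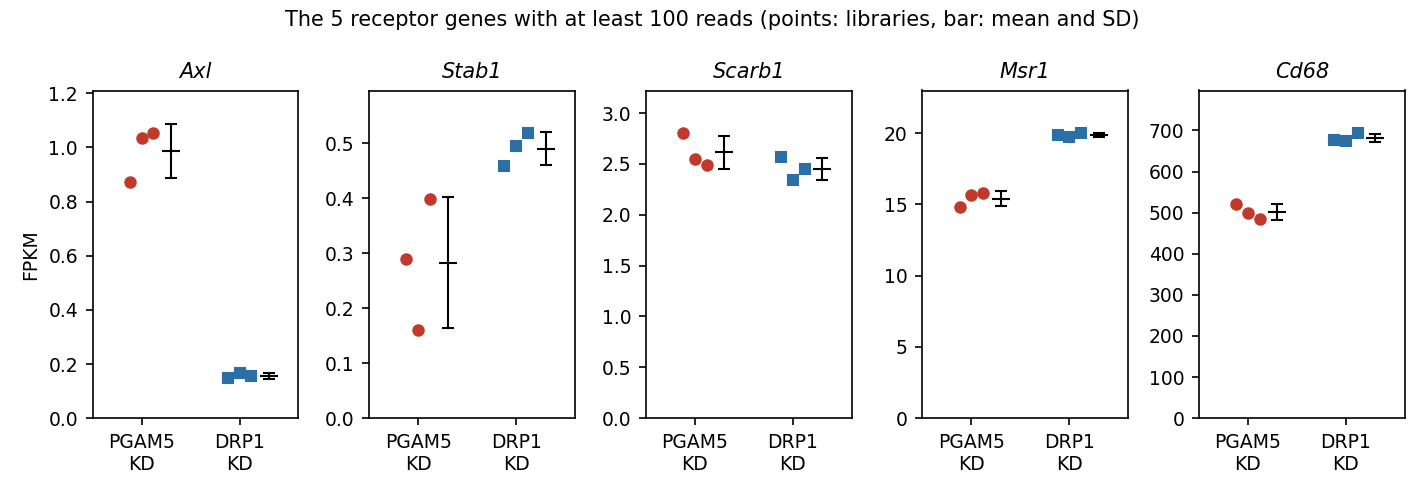
FPKM per library of the 5 receptor genes with at least 100 reads in all, each panel with its own axis from 0, PGAM5 knockdown left and DRP1 knockdown right, bars showing the mean and SD (n = 3). The PGAM5 knockdown libraries lie above the DRP1 knockdown libraries for Axl, overlap them for Scarb1, and lie below them for Stab1, Msr1 and Cd68.

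The third TAM receptor gene, Tyro3, had 6, 9 and 5 reads in PGAM5 libraries 1 to 3, against 8, 13 and 28 reads in DRP1 libraries 1 to 3, and the groups overlapped. The ligand gene Gas6 averaged 0.299 ± 0.051 FPKM in the PGAM5 knockdown and 0.450 ± 0.025 FPKM in the DRP1 knockdown (SD, n = 3 each). It did not pass (log2(FPKM + 1) difference -0.16, limma adjusted p = 0.17 with the 0.1 FPKM filter). Pros1, the gene of protein S, averaged 0.512 ± 0.240 FPKM in the PGAM5 knockdown and 0.670 ± 0.069 FPKM in the DRP1 knockdown and overlapped between groups (adjusted p = 0.44 in limma). Axl, Gas6 and Pros1 were tested at that filter and Axl passed, while Mertk and Tyro3 lay below it. Axl was the most abundant of the 5 in the PGAM5 knockdown and the third in the DRP1 knockdown, after Pros1 and Gas6.

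**Figure D3:**
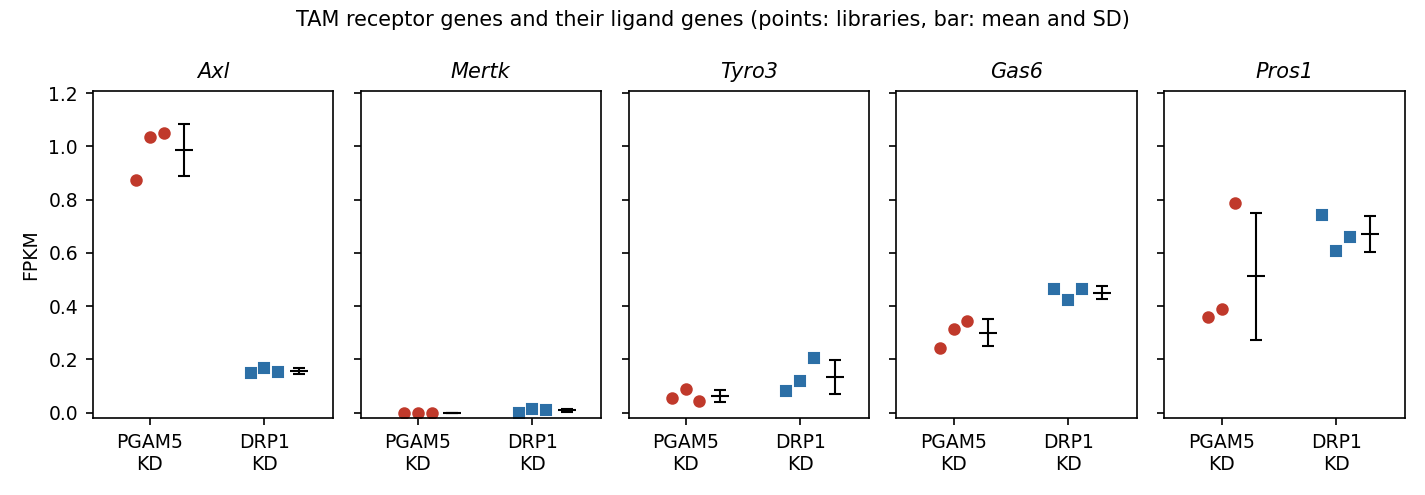
FPKM per library of the TAM receptor genes Axl, Mertk and Tyro3 and the ligand genes Gas6 and Pros1 on a common axis, PGAM5 knockdown left and DRP1 knockdown right, bars showing the mean and SD (n = 3). Axl is at 0.872 to 1.05 FPKM in the PGAM5 knockdown and at 0.148 to 0.169 FPKM in the DRP1 knockdown, and Mertk is near 0 in both.

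Of the 10 genes flanking the 5 detected receptors, the nearest tested on each side, 1 fell, 1 rose and 8 did not pass at the 0.1 FPKM filter. Over all 14632 genes tested at that filter 17.8% were called, so these counts do not set the flanking genes apart from other genes. Hnrnpul1, which lies 2.5 kb from Axl, averaged 21.7 FPKM in the PGAM5 knockdown and 23.6 FPKM in the DRP1 knockdown and did not pass (adjusted p = 0.11 in limma). Cyp2s1, 13.8 kb on the other side, averaged 0.190 FPKM in the PGAM5 knockdown and 0.0570 FPKM in the DRP1 knockdown, in the direction of Axl. Cyp2s1 passed the 0.1 FPKM filter only through its level in the PGAM5 knockdown. It did not pass (log2(FPKM + 1) difference 0.17, adjusted p = 0.25 in limma), on a scale that understates folds at such levels. Unlike Axl, Cyp2s1 was not read with voom. Eif4a1, a translation initiation gene 0.8 kb from Cd68, fell by 0.20 on the log2(FPKM + 1) scale (limma adjusted p = 0.0099). Tusc3, 416.6 kb from Msr1, rose by 0.35 (adjusted p = 0.018 in limma), opposite to Msr1. Among tested genes outside the set, the centred log2(FPKM + 1) profiles closest to that of Cd68 over the 6 libraries were those of Pstpip2, Slc2a6, Mia3, Ppig and Tnfrsf1b, with root mean square distances of 0.024 to 0.029. Their log2(FPKM + 1) differences were -0.41 to -0.47, near that of Cd68 because they were picked by likeness to its profile.

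Other genes of uptake and clearance were followed in 7 lists of 93 genes, of which 60 were tested. Of these, 13 were higher in the PGAM5 knockdown, 13 were lower and 34 did not pass, which is 43.3% called, against 25.4% of all tested genes. The median log2(FPKM + 1) difference was -0.04 over the 60 genes and 0.01 over all tested genes. With DRP1 library 1 left out, 8 of them were higher, and likewise 8 with DRP1 library 3 left out. The lists were chosen with earlier results of these data known, so the pooled share does not set them apart from other genes. Timp1, 1 of the 13 higher, entered the test only through its level in the PGAM5 knockdown. Few genes were tested per list, so the counts by list below do not set a list apart from other genes either.

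Of 15 other scavenger receptor genes, 4 were tested, with 1 higher, 1 lower and 2 not passing, where 25.4% of all tested genes were called. Cd36, the class B receptor for oxidised lipoprotein and fatty acids, averaged 9.49 ± 0.17 FPKM in the PGAM5 knockdown and 10.9 ± 0.10 FPKM in the DRP1 knockdown (SD, n = 3 each), a fall of 0.19 on the log2(FPKM + 1) scale (limma adjusted p = 0.0086). Cxcl16, a chemokine that in its membrane form is a scavenger receptor, was higher by 0.19 (adjusted p = 0.028 in limma). Its call was lost without a filter, with the replicate block, and on leaving out PGAM5 library 2 or any 1 of the DRP1 libraries, its adjusted p in limma or voom ranged from 0.019 to 0.087 over 14 alternatives, and Zmynd15 overlaps 18.3% of its exonic length.

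Among 14 other receptor genes for dying cells, 9 were tested, with 1 higher, 3 lower and 5 not passing, where 25.4% of all tested genes were called. Itgav, the alpha-v integrin subunit that binds MFGE8-coated cells, averaged 8.65 ± 0.69 FPKM in the PGAM5 knockdown and 5.54 ± 0.30 FPKM in the DRP1 knockdown (SD, n = 3 each), 1.56-fold higher (log2(FPKM + 1) difference 0.56, limma adjusted p = 0.0010). Itgb5, a beta subunit that pairs with it, did not pass, at 15.3 FPKM in the PGAM5 knockdown and 15.8 FPKM in the DRP1 knockdown. Cx3cr1, the fractalkine receptor, averaged 3.32 ± 0.18 FPKM in the PGAM5 knockdown and 4.97 ± 0.30 FPKM in the DRP1 knockdown, a fall of 0.47. Cd300a, an inhibitory receptor for phosphatidylserine, fell by 0.22, and P2ry2, which senses nucleotides from dying cells, by 0.19. Leaving out any 1 of the 6 libraries ended the P2ry2 call, as did no filter or the replicate block, and its adjusted p in limma or voom ranged from 0.022 to 0.12 over 14 alternatives. Timd4 and Havcr1, genes of TIM family receptors, were at 0 reads throughout.

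Bridging genes were 12, of which 5 were tested, with 2 higher, 1 lower and 2 not passing, where 25.4% of all tested genes were called. Mfge8, which links phosphatidylserine to alpha-v integrins, averaged 17.2 ± 0.20 FPKM in the PGAM5 knockdown and 14.4 ± 0.38 FPKM in the DRP1 knockdown (SD, n = 3 each), a rise of 0.24 on the log2(FPKM + 1) scale (limma adjusted p = 0.0030). Tgm2, a transglutaminase that assists integrin-dependent uptake, was higher by 0.56, and other genes overlap 21.8% of its exonic length. Lgals3, the gene of galectin-3, reported as a MERTK ligand, averaged 524 ± 30.5 FPKM in the PGAM5 knockdown and 672 ± 4.97 FPKM in the DRP1 knockdown, a fall of 0.36. The complement gene C1qb had 0 reads in all libraries, and C1qa and C1qc had means of at most 0.0350 FPKM.

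Sheddases release receptors such as AXL and MERTK from the cell surface. All 5 tested genes of that list of 7 passed, with 3 higher and 2 lower, where 25.4% of all tested genes were called. Timp1 is 1 of the 3 and entered the test only through its level in the PGAM5 knockdown. Timp1, an inhibitor of metalloproteinases, had 46, 44 and 38 reads in PGAM5 libraries 1 to 3, against 5, 4 and 2 reads in DRP1 libraries 1 to 3, a log2(FPKM + 1) difference of 1.61 (limma adjusted p = 0.00011). The means were 2.76 FPKM in the PGAM5 knockdown and 0.236 FPKM in the DRP1 knockdown, so Timp1 would not have passed the 1 FPKM filter on the DRP1 knockdown alone. Its mean FPKM was 11.7-fold higher in the PGAM5 knockdown, and the log2 difference was 3.16 with a pseudocount of 0.1 and 3.57 with voom. Adam9 averaged 48.3 ± 0.87 FPKM in the PGAM5 knockdown and 34.5 ± 0.58 FPKM in the DRP1 knockdown (SD, n = 3 each), 1.40-fold higher. Adam10, another sheddase gene, averaged 34.7 ± 0.28 FPKM in the PGAM5 knockdown and 30.5 ± 1.27 FPKM in the DRP1 knockdown, a rise of 0.18 (limma adjusted p = 0.012). Adam17, a sheddase of AXL and MERTK ectodomains in mouse cells, averaged 58.8 ± 1.10 FPKM in the PGAM5 knockdown and 67.6 ± 1.35 FPKM in the DRP1 knockdown, a fall of 0.20. Its partner gene Rhbdf2, which encodes iRhom2, fell by 0.56, to 23.7 ± 1.38 FPKM in the PGAM5 knockdown, against 35.2 ± 0.58 FPKM in the DRP1 knockdown.

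Of the 18 tested genes of the engulfment machinery, 1 was higher, 2 were lower and 15 did not pass, which is 16.7% called, against 25.4% of all tested genes. Elmo2 was higher by 0.27, while Elmo1, its paralogue that guides RAC activation with DOCK proteins, was lower by 0.19 on the log2(FPKM + 1) scale. Cdc42, a GTPase of actin dynamics, was lower by 0.18. No filter, or leaving out PGAM5 library 2 or any 1 of the DRP1 libraries, ended the Elmo1 call (adjusted p in limma or voom 0.0026 to 0.085 over 14 alternatives). The Cdc42 call ended when DRP1 library 1 or 2 was left out (adjusted p in limma or voom 0.0026 to 0.066).

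Of the 10 genes that signal against engulfment 6 were tested, with 3 higher, 2 lower and 1 not passing, where 25.4% of all tested genes were called. Ptpn6, the phosphatase SHP-1 that acts below inhibitory receptors, averaged 117 ± 1.63 FPKM in the PGAM5 knockdown and 82.7 ± 1.01 FPKM in the DRP1 knockdown (SD, n = 3 each), a rise of 0.50 on the log2(FPKM + 1) scale (limma adjusted p = 3.9e-05). Lilrb4a, an inhibitory receptor gene, was lower by 0.38, but other genes overlap 35.9% of its exonic length, so its values are uncertain. Ptpn11 was higher by 0.14, and Sirpa, the receptor for CD47, lower by 0.14. Neither call held throughout. With all 6 libraries, both were lost without a filter, with quantile normalization, without the trend and with the replicate block. Sirpa also did not pass when PGAM5 library 2 or DRP1 library 2 or 3 was left out, nor Ptpn11 when PGAM5 library 1 or 2 or any 1 of the DRP1 libraries was. Their adjusted p in limma or voom ranged from 0.0034 to 0.085 for Sirpa and from 0.011 to 0.11 for Ptpn11 over 14 alternatives each.

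Transcription factor genes known to act on these receptors gave 2 higher, 2 lower and 9 not passing of 13 tested, where 25.4% of all tested genes were called. Nfe2l2, the gene of NRF2, which drives Marco in mouse macrophages, averaged 33.8 ± 1.27 FPKM in the PGAM5 knockdown and 48.4 ± 1.20 FPKM in the DRP1 knockdown (SD, n = 3 each), a fall of 0.51 on the log2(FPKM + 1) scale (limma adjusted p = 0.00015). Rxra, a partner of LXR and PPAR receptors, was lower by 0.46, while Rxrb was higher by 0.22 and Nr3c1, the glucocorticoid receptor gene, by 0.19. Rxrb did not pass when PGAM5 library 2 or DRP1 library 1 or 3 was left out, nor Nr3c1 when DRP1 library 1 or 3 was. Over 13 alternatives each, adjusted p in limma or voom ranged from 0.0055 to 0.058 for Rxrb and from 0.01 to 0.054 for Nr3c1. Spi1, the gene of PU.1, did not pass, at 191 to 196 FPKM in the PGAM5 knockdown and 191 to 192 FPKM in the DRP1 knockdown, and Pparg was at 0 reads in all 6 libraries.

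**Figure D4:**
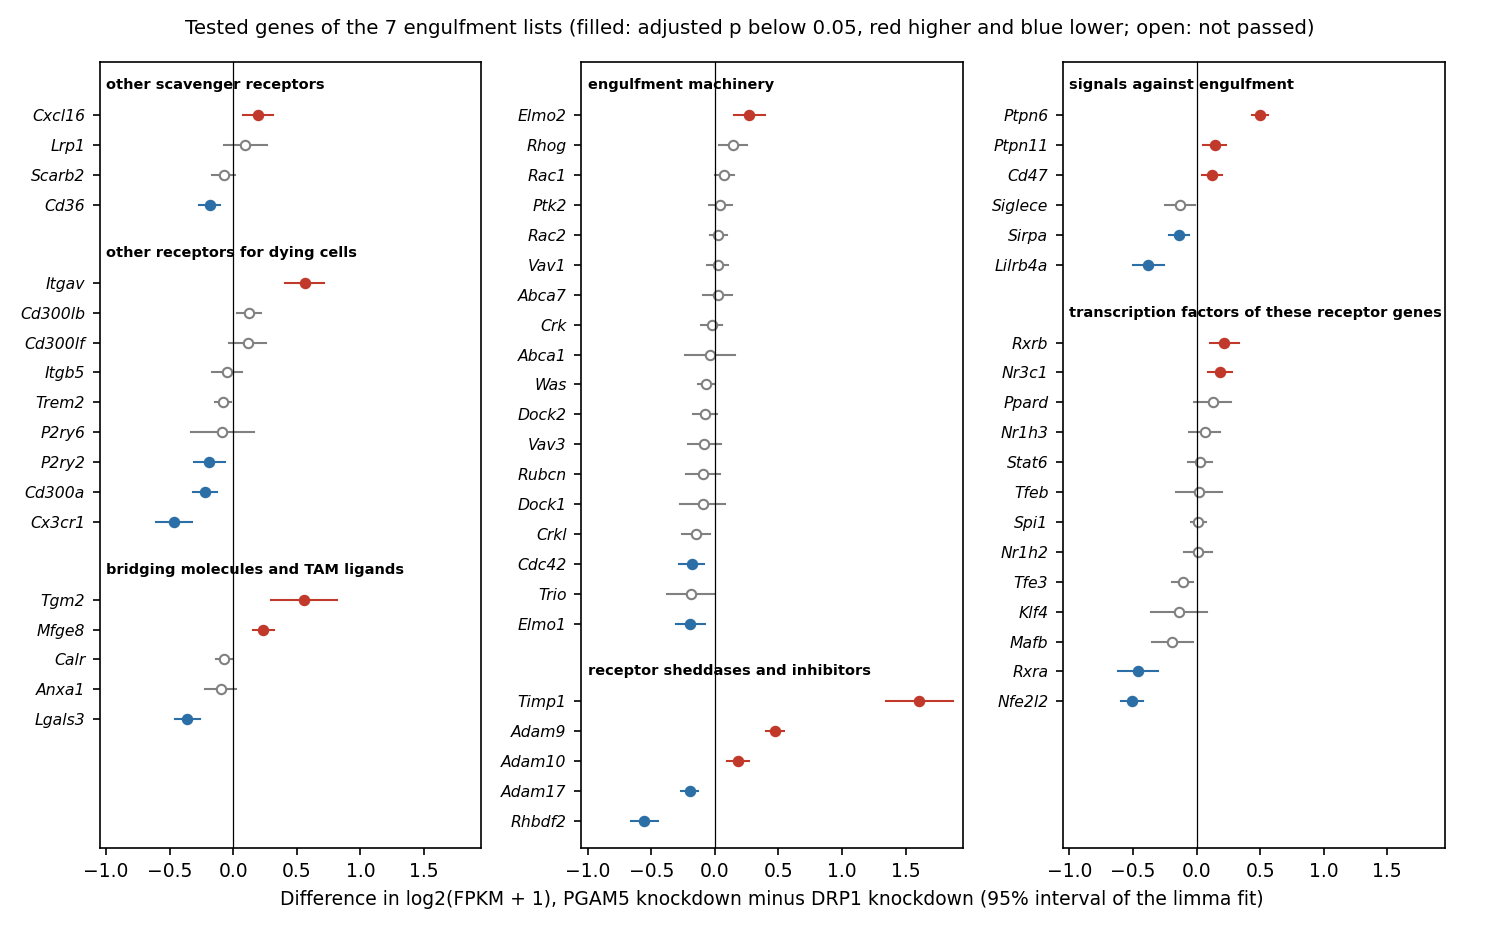
Differences in log2(FPKM + 1), PGAM5 knockdown minus DRP1 knockdown, with 95% intervals of the limma fit for the 60 tested genes of the 7 uptake and clearance lists. Filled points passed an adjusted p of 0.05, red higher and blue lower, and Timp1 at 1.61 lies farthest from 0. Timp1 passed the 1 FPKM filter only through its level in the PGAM5 knockdown.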

How the data were processed

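RNA was sequenced from 6 libraries, 3 per knockdown, grouped by their titles. Nothing says that replicates were separate cultures, so p-values reflect spread among these samples, and this may be technical. The authors deposited FPKM values for 54532 genes. HISAT2 2.0.5, featureCounts 1.5.0-p3 and build mm10 are named, per the submitters' processing notes. How FPKM were computed, with which annotation and strand setting, is not given in the sources used, and the protocol names both directional and non-directional libraries. Symbols, coordinates and exonic lengths came from GENCODE M21, with 54495 identifiers matched and 37 not.

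FPKM multiplied by exonic length and depth lay within 0.02 of a whole number for at least 96.1% of values above 0, which gave the reads and depths quoted. Limits of 3 reads cover counting error only. For genes averaging 1 FPKM or more, log2(FPKM + 1) values were fitted by limma 3.58.1 under R 4.3.3 (mean-variance trend, two-sided), adjusted by Benjamini-Hochberg over 10634 genes at a threshold of 0.05. Genes between 0.1 and 1 FPKM were read from the same fit with a filter of 0.1, and from voom on recovered reads. Exact permutation tests were two-sided. The receptor genes and lists were chosen with earlier results of these data known. Named genes are the 10 receptors, the targets, up to 4 called genes per list with the largest differences, the most abundant marker per other cell type and the 5 profiles closest to Cd68. Others, including the neighbouring genes, the macrophage markers, Vwf, Tek, Adam10, Tyro3, Gas6, Pros1, Itgb5, Spi1 and genes at 0, were picked after seeing their values. Near-identical transcripts were searched with blastn 2.17.0 at 97% identity over at least 100 bases, with no match for 9 of the 10 receptors. Alternatives were a pseudocount of 0.1, other filters, quantile and median-ratio scaling, no trend, voom, a replicate block and leaving out each library. Promoter windows came from RefSeq, build GRCm38.p6.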

Additional observations from a re-analysis of the deposited data

How the results depend on the processing

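Cd68 and Msr1 kept their direction and call in all 23 alternatives each, with limma or voom adjusted p of at most 0.0076 and 0.012. Scarb1 did not pass in any of its 23. Axl, below the main filter, passed in each of the 11 fits that included it (adjusted p of at most 0.0094), which gave 1 receptor higher without a filter, with the 0.1 FPKM filter, and in every fit at that filter with voom, a pseudocount of 0.1, the replicate block or a library left out. Its log2 difference was 0.78 with a pseudocount of 1, 2.08 with 0.1 and 2.61 with voom, and 0.75 to 0.82 over the libraries left out. Stab1 gave -0.22, -0.67 and -0.86 in the same 3 fits and -0.28 to -0.15 over the libraries left out, passing with voom. The fits at the 0.1 FPKM filter that also changed another choice were chosen after seeing the data. Leaving out a library at the 1 FPKM filter gave 0 receptors higher and 2 lower each time, and over all genes 971 to 1458 higher and 825 to 1280 lower, against 1464 and 1240, with the fewest higher without DRP1 library 2 and the fewest lower without DRP1 library 3. On the 7 lists it gave 8 to 14 higher and 9 to 16 lower. Deviations of same-numbered libraries correlated at 0.00 to 0.03, against -0.07 to 0.04 for other pairs across the groups. No shared shift by replicate number was thus seen, but this cannot show whether the libraries were prepared in pairs, which the labels do not say. With the replicate block 1161 genes were higher and 972 lower, and 11 list genes each way. Beside the receptors, 27 called genes were followed over the alternatives, namely those picked from the lists by largest difference, Egfl7 and the targeted genes. Of these, 9 lost the call in at least 1 alternative and 0 reversed. The called macrophage markers, flanking genes, Adam10 and profiles closest to Cd68 were not followed in this way. Depth limits Marco, Mrc1, Olr1, Mertk and Cd163 to a statement of at most 2 reads per library.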
